A study of Mus musculus with 6 samples.

Results

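Platelet-derived growth factor (PDGF) signalling was examined through 7 genes of the mouse: the ligand genes Pdgfa, Pdgfb, Pdgfc and Pdgfd, the receptor kinase genes Pdgfra and Pdgfrb, and Pdgfrl, which encodes a receptor-like protein without a kinase domain. The genes were chosen by symbol, and all 7 were found among the 54532 genes of the table. The data were 6 RNA-seq libraries of mouse aortic smooth muscle cells (MASMCs), the cells that form the muscular layer of the arterial wall. Of these, 3 libraries came from wild-type cells that had received an adenoviral vector with a control plasmid (Ad-Con), and 3 from cells given a vector with a plasmid for overexpression of pyruvate dehydrogenase kinase 4 (Ad-PDK4), a mitochondrial kinase that restrains pyruvate oxidation. Per the study's methods the cells were isolated from the abdominal aorta by collagenase digestion, cultured and treated in both groups with angiotensin II (1 µM, 48 h), a vasoconstrictor hormone that the labels do not mention. The comparison asked how PDK4 alters the expression programme of these cells, and here what became of their PDGF system. The study calls the 3 libraries of a group biological replicates, but the labels do not say whether they came from separate animals or cultures, so the p-values measure the spread between these libraries.

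PDGF is a classical mitogen and chemoattractant for smooth muscle cells, fibroblasts and pericytes. The A and B chains are cleaved inside the cell and secreted as active dimers, whereas the C and D chains carry a CUB domain and stay latent until a protease removes it outside the cell. PDGFRα binds the A, B and C chains and PDGFRβ binds the B and D chains. In the vessel wall, mural cells typically carry PDGFRβ and adventitial fibroblasts carry PDGFRα, and PDGF-BB is the standard agent for turning cultured smooth muscle cells away from the contractile state.

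The deposited values were FPKM (fragments scaled to gene length and to a library size), a level that can be compared between genes. Total reads recovered from these values ranged from 17636111 to 20173006 in the libraries labelled Ad-Con and from 17588942 to 21861872 in those labelled Ad-PDK4. Pdk4 itself, which checks the labels, had 9.50, 10.4 and 10.1 FPKM in the Ad-Con libraries and 7.67, 7.40 and 7.38 FPKM in those labelled Ad-PDK4. It was therefore lower in the libraries labelled as overexpressing, with a log2 fold change of -0.42 with an SE of 0.06 (adjusted p = 0.0011 by limma). Whether the count takes in reads from the plasmid insert is not given in the sources used here. The group names below are labels, and "higher" or "lower" refers to the level under the Ad-PDK4 label. Differences were tested by limma on log2(FPKM + 0.1) over the 13423 genes with a mean of at least 0.5 FPKM, and a gene was called at a Benjamini-Hochberg adjusted p below 0.05.

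All 7 genes passed the filter on low values, and 3 of them were called. Pdgfd rose by 49.98%, Pdgfrb rose by 42.4% and Pdgfc fell by 27.0%, while Pdgfa, Pdgfb, Pdgfra and Pdgfrl did not pass the test. Of all tested genes 42.7% were called (21.8% higher and 20.8% lower), so 3 of 7 is a share near the background. None of the 7 genes reached a 2-fold change, while 6.63% of all tested genes were called with at least that change (3.95% higher and 2.68% lower). The groups did not overlap for 4 of the 7 genes (Pdgfb, Pdgfc, Pdgfd and Pdgfrb), against 54.3% of all tested genes. The median log2 fold change of the 7 genes was 0.08, beside -0.003 over all tested genes.

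**Figure D1:**
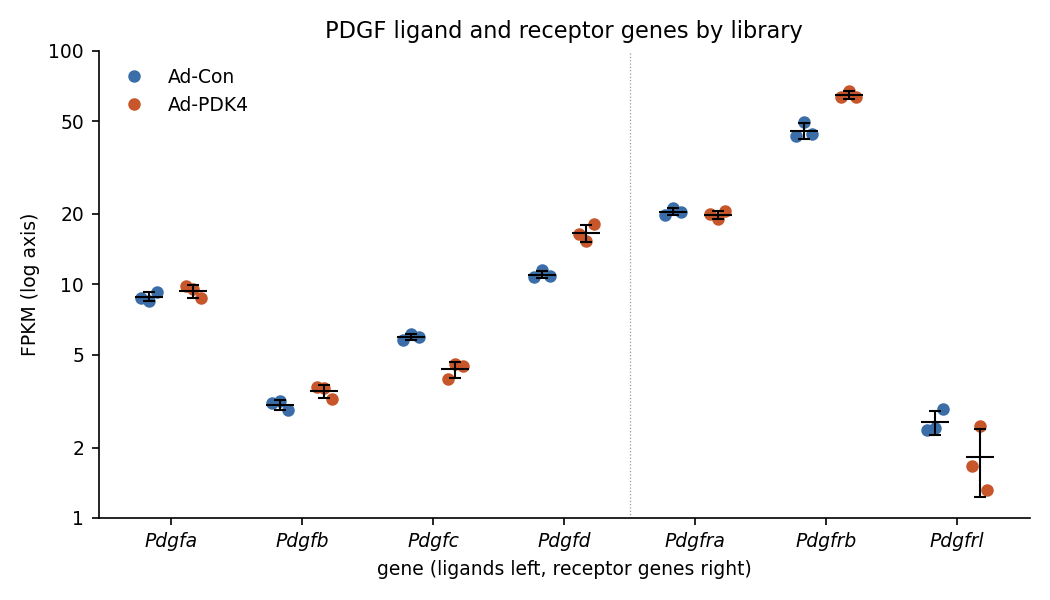
FPKM (log axis) of each PDGF gene in the 6 libraries, with ligand genes left of the dotted line. Points are libraries, and black marks give the mean and SD of the 3 libraries of a label. Pdgfrb and Pdgfd are higher and Pdgfc lower in all 3 libraries labelled Ad-PDK4, whereas the points of Pdgfa, Pdgfra and Pdgfrl overlap between the labels.

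Pdgfrb (ENSMUSG00000024620, chromosome 18) encodes the receptor for the B and D chains and was the most abundant of the 7 genes. Its levels were 43.1, 49.3 and 43.9 FPKM in the Ad-Con libraries and 63.2, 67.6 and 63.1 FPKM in those labelled Ad-PDK4. Every library labelled Ad-PDK4 lay above every control library, and the gap between the labels was wider than the range within either. The mean went from 45.4 ± 3.41 to 64.6 ± 2.56 FPKM (SD, n = 3), a log2 fold change of 0.51 with an SE of 0.06 (adjusted p = 0.00053 by limma). The 95% interval of the fold change was 1.28 to 1.58. Among the tested genes Pdgfrb ranked 1163rd by mean FPKM in the Ad-Con libraries and 785th under the Ad-PDK4 label. No annotated gene overlaps it, and none of its 31-base stretches occurs in a transcript of another gene.

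Pdgfra (ENSMUSG00000029231, chromosome 5, 75152292 to 75198215, GRCm38) encodes the receptor for the A, B and C chains. Its levels were 19.8, 21.3 and 20.3 FPKM in the Ad-Con libraries and 19.95, 19.0 and 20.6 FPKM in those labelled Ad-PDK4. The ranges of the labels overlapped. The log2 fold change was -0.05 with an SE of 0.06 (adjusted p = 0.54 by limma), and the 95% interval ran from 0.887 to 1.06 in fold. With 3334 to 4562 reads per library, counting error was about 1.62% of the level.

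Pdgfrl (ENSMUSG00000031595, chromosome 8, 40926212 to 40990785) had the lowest level of the 7 genes and the widest relative spread. Reads numbered 151, 133 and 165 in the Ad-Con libraries against 95, 135 and 91 in those labelled Ad-PDK4, or 2.37, 2.42 and 2.91 against 1.67, 2.47 and 1.32 FPKM. In the libraries labelled Ad-PDK4 replicate 2 lay inside the control range and the other 2 lay below it. The log2 fold change of -0.51 (SE 0.21) did not pass the test (adjusted p = 0.085 by limma). Without Ad-PDK4 replicate 2 it was -0.75 and passed (adjusted p = 0.0099 by limma), and it also passed in limma-voom on the recovered reads (-0.57, adjusted p = 0.018). In the other 14 of 16 alternatives it did not pass, and without Ad-PDK4 replicate 3 it was -0.32 (adjusted p = 0.22 by limma). The coefficient of variation was 32.4% under the Ad-PDK4 label, where counting alone gives about 9.78%.

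The pair of signalling receptors was also compared as a ratio inside each library, which does not depend on how libraries are scaled. Pdgfra stood at 0.461, 0.432 and 0.464 of the Pdgfrb level under the Ad-Con label and at 0.316, 0.281 and 0.326 under the Ad-PDK4 label. The log2 ratio was -1.15 ± 0.06 against -1.70 ± 0.11 (SD, n = 3), a difference of -0.56. The exact two-sided permutation test gave p = 0.1, the smallest value possible for 3 libraries against 3 (adjusted p = 0.15 over the 3 ratios tested). Without any 1 library the difference stayed between -0.60 and -0.49.

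Among the ligand genes, the largest difference was that of Pdgfd (ENSMUSG00000032006, chromosome 9, 6168584 to 6378850), whose product signals through PDGFRβ once a protease has released it. Pdgfd had 10.7, 11.5 and 10.8 FPKM in the Ad-Con libraries and 16.3, 15.3 and 18.1 FPKM in those labelled Ad-PDK4. All 3 libraries labelled Ad-PDK4 were above the controls. The mean rose from 11.0 ± 0.409 to 16.6 ± 1.40 FPKM (SD, n = 3), with a log2 fold change of 0.58 with an SE of 0.07 (adjusted p = 0.00047 by limma) and a 95% interval of 1.34 to 1.68 in fold. The spread was wider under the Ad-PDK4 label, at a coefficient of variation of 8.42% against 3.72%. The protein-coding gene Ddi1 lies in the same interval on the opposite strand, touches no Pdgfd exon and had at most 3 reads in any library.

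Pdgfc (ENSMUSG00000028019, chromosome 3, 81036416 to 81214040), the other latent chain, which acts mainly on PDGFRα, moved the other way. It had 5.76, 6.11 and 5.97 FPKM in the Ad-Con libraries and 3.93, 4.56 and 4.48 FPKM in those labelled Ad-PDK4. Every library labelled Ad-PDK4 lay below the lowest control. The mean fell from 5.95 ± 0.174 to 4.32 ± 0.343 FPKM (SD, n = 3), with a log2 fold change of -0.45 with an SE of 0.08 (adjusted p = 0.0028 by limma) and a 95% interval of 0.642 to 0.830 in fold. The ratio of Pdgfc to Pdgfd inside a library was 0.538, 0.533 and 0.553 in the Ad-Con libraries against 0.241, 0.298 and 0.248 in those labelled Ad-PDK4. The difference in log2 ratio was -1.05 (exact two-sided permutation test, p = 0.1, n = 3 per label, adjusted p = 0.15 over the 3 ratios).

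The sequences upstream of these latent ligand genes are shown because the genes moved in opposite directions. A window of Pdgfa, which did not pass the test, is shown beside them. Each is the 250 bases before a RefSeq start on GRCm38.p6, read 5′ to 3′ on the strand of the gene. Pdgfc is on the plus strand (chr3:81036166-81036415), Pdgfd on the plus strand (chr9:6168236-6168485) and Pdgfa on the minus strand (chr5:138994945-138995194, the more upstream of its 2 listed starts). The Pdgfa window lies inside the gene as counted (138976014 to 138997370), not before it. The Pdgfd window ends at 6168485, while the gene as counted starts at 6168584. Capitals mark matches to the motifs named below.
Pdgfc: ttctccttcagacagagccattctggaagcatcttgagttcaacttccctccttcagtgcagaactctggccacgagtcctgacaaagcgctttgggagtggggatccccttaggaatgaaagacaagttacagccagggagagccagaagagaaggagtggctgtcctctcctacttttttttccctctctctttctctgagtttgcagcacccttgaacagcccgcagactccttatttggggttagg
Pdgfd: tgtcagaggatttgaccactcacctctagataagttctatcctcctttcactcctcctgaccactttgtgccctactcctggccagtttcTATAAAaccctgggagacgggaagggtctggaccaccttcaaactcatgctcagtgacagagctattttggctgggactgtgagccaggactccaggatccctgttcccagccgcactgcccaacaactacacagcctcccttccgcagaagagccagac
Pdgfa: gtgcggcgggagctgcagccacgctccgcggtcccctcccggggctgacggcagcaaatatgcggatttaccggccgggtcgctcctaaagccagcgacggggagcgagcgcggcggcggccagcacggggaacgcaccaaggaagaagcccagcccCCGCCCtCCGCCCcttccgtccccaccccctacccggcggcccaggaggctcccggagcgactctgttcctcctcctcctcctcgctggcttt
Motifs were matched by their letters only, and whether any match is functional was not tested. The capitals are the letters TATAAA (the TATA box motif) 160 bases before the RefSeq start of Pdgfd. They are also a pair of matches to the GC box motif (GGGCGG, here on the reverse strand) 93 and 86 bases before the Pdgfa start. Both strands were searched for these, for CCAAT, for the AP-1 site TGANTCA, and for the interferon response element and the NF-kB site in their consensus letters, and no marked motif overlaps another. Of all 32851 promoter windows of this length, 12.4% hold TATAAA, 32.7% GGGCGG, 33.8% CCAAT, 6.75% TGANTCA, 2.98% the interferon element and 0.356% the NF-kB site. The Pdgfc window holds none of these motifs, and the second Pdgfa window, not printed, holds GGGCGG once, 60 bases before its start. The windows of Pdgfc and Pdgfd are 50.8% and 53.6% G or C, close to the median of 52.4% over all windows, while that of Pdgfa is 72.4%.

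Pdgfa (ENSMUSG00000025856, chromosome 5, 138976014 to 138997370) encodes the chain that acts only through PDGFRα. It had 8.73, 8.51 and 9.27 FPKM in the Ad-Con libraries and 9.80, 9.56 and 8.69 FPKM in those labelled Ad-PDK4. The labels overlapped, since replicate 3 labelled Ad-PDK4 lay within the control range. The log2 fold change was 0.08 with an SE of 0.07 (adjusted p = 0.39 by limma), with a 95% interval of 0.947 to 1.18 in fold. The antisense gene 6330403L08Rik overlaps Pdgfa exons, and 23.3% of the 31-base stretches of Pdgfa transcripts occur in transcripts of 3 other genes, this one among them. The level of 6330403L08Rik was 2.08 ± 0.316 against 2.27 ± 0.156 FPKM (SD, n = 3), and it did not pass the test either (log2 fold change 0.13, adjusted p = 0.48 by limma). Whether counting used strand is not given in the sources used here, so in the shared part reads of the 2 genes cannot be told apart.

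Pdgfb (ENSMUSG00000000489, chromosome 15, 79995874 to 80014977) encodes the chain that binds both receptors. It had 3.11, 3.16 and 2.89 FPKM in the Ad-Con libraries and 3.62, 3.60 and 3.23 FPKM in those labelled Ad-PDK4. The labels did not overlap, but the gap between 3.16 and 3.23 FPKM was smaller than the SD within either label (0.143 and 0.218 FPKM, n = 3). The log2 fold change of 0.18 (SE 0.09) did not pass the test (adjusted p = 0.13 by limma), and the 95% interval ran from 0.987 to 1.31 in fold. With 218 to 297 reads per library, counting error was about 6.01% to 6.51% of the level. Pdgfa exceeded Pdgfb in every library, by 2.81, 2.69 and 3.21 times in the Ad-Con libraries against 2.71, 2.66 and 2.69 times in those labelled Ad-PDK4, a difference of -0.11 in log2 ratio (exact two-sided permutation test, p = 0.2, n = 3 per label, adjusted p = 0.2 over the 3 ratios). Without Ad-Con replicate 3 that difference was -0.03, and without Ad-Con replicate 2 it was -0.16.

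**Figure D2:**
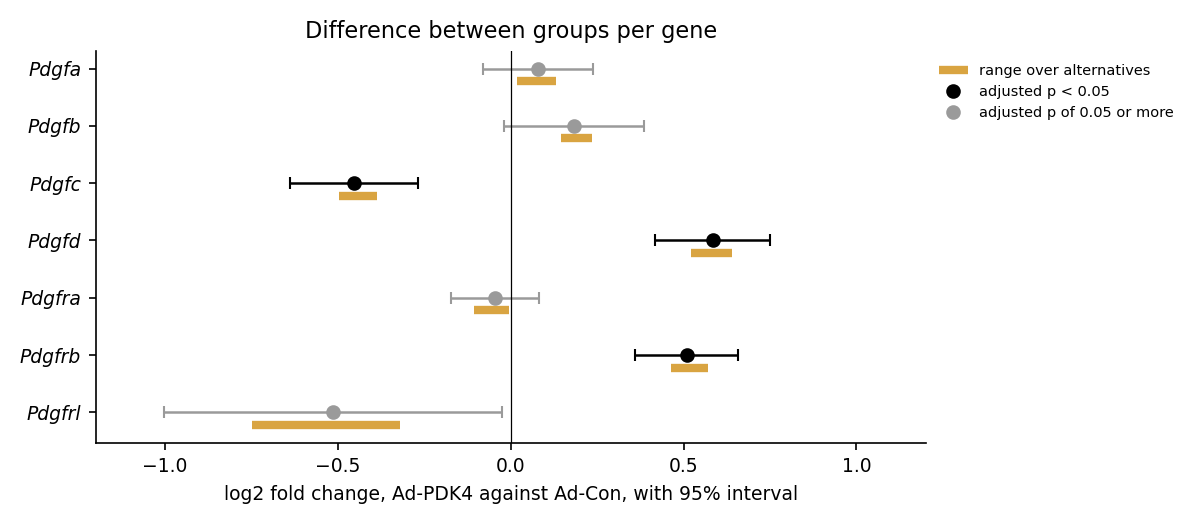
Log2 fold change of each gene under the Ad-PDK4 label against the Ad-Con label, with its 95% interval (points and bars, black where the adjusted p is below 0.05) and, beneath, the range of the value over the alternative settings tried. Pdgfd (0.58), Pdgfrb (0.51) and Pdgfc (-0.45) lie away from 0, and the interval of Pdgfrl is the widest.

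Ordered by mean FPKM, the genes ran Pdgfrb, Pdgfra, Pdgfd, Pdgfa, Pdgfc, Pdgfb and Pdgfrl under both labels. Under the Ad-Con label the ranges of neighbours in this order were separate except for Pdgfb and Pdgfrl, which overlapped. Under the Ad-PDK4 label all neighbours were separate, among them Pdgfra and Pdgfd (lowest 19.0 against highest 18.1 FPKM), Pdgfc and Pdgfb (3.93 against 3.62 FPKM) and Pdgfb and Pdgfrl (3.23 against 2.47 FPKM). The 4 ligand genes summed to 28.8 ± 0.476 FPKM in the Ad-Con libraries and 33.7 ± 0.728 FPKM under the Ad-PDK4 label (SD, n = 3). Within that sum Pdgfd went from 38.1% ± 0.959 to 49.1% ± 3.07 and Pdgfc from 20.6% ± 0.268 to 12.8% ± 1.08. Pdgfa made up 30.6% ± 1.47 and 27.7% ± 2.20, and Pdgfb 10.6% ± 0.527 and 10.3% ± 0.838.

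**Figure D3:**
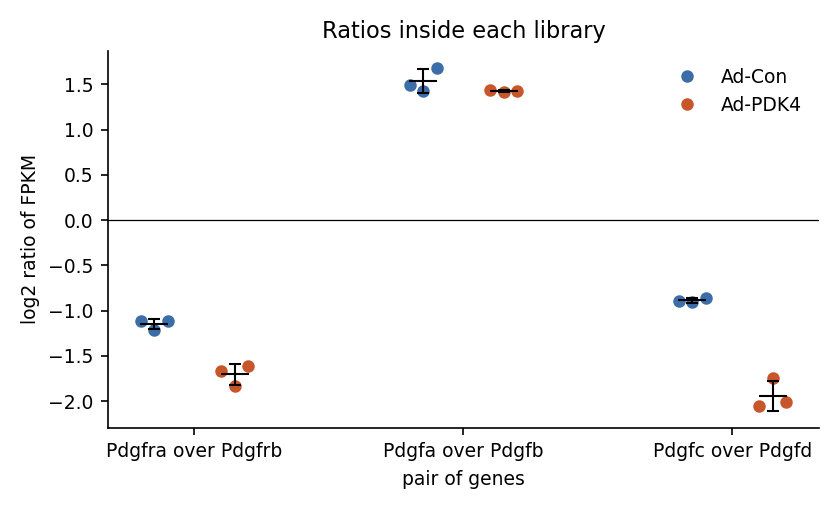
Log2 ratio of the FPKM of 2 genes inside each library, for 3 pairs. Points are libraries and black marks the mean and SD per label (n = 3). Pdgfra over Pdgfrb and Pdgfc over Pdgfd are lower in all 3 libraries labelled Ad-PDK4, while Pdgfa over Pdgfb overlaps between the labels.

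The size of these differences was set beside all tested genes. The absolute log2 fold change of Pdgfd exceeded that of 80.5% of them, that of Pdgfrb 76.1% and that of Pdgfc 72.2%. For each called gene the most similar profiles were sought among 7730 genes with a mean of at least 5 FPKM, as the smallest root mean square distance between log2 values of the 6 libraries, each centred on its own mean. Nearest to Pdgfrb were Fbln5 (distance 0.03), Bmp4 (0.03) and Stard13 (0.04). Nearest to Pdgfd were Eif1a (0.02), Mir22hg (0.02) and Cldn12 (0.02), and nearest to Pdgfc were Tmem218 (0.04), Psen2 (0.04) and Foxn3 (0.04). These distances describe 6 libraries in 2 groups only.

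Secreted PDGF is processed by proprotein convertases (A and B chains) or by plasminogen activators (C and D chains), and is bound by matrix proteins. Of 17 genes listed for these steps 12 were tested, and 6 rose and 3 fell, so that 75% were called beside 42.7% of all tested genes. The share called over all genes rose with level, to 52.3% with a filter at 5 FPKM. The list had a median log2 fold change of 0.28, beside -0.003 over all tested genes. This list and the pathway lists below were chosen with earlier results of these data known, so their shares are descriptions only. Rises were seen in Thbs1, a matrix glycoprotein (27.1 ± 1.17 to 67.2 ± 4.31 FPKM, SD, n = 3, log2 fold change 1.31), and in the proteoglycan gene Dcn (0.83). Falls were seen in Serpine2, a serine protease inhibitor (-0.77), Sparc, which binds PDGF chains that contain B (-0.36), and Plau, the urokinase gene that activates PDGF-D (-0.34, adjusted p = 0.035 by limma). Plat, whose product activates PDGF-C, was at 34.8 against 36.6 FPKM and did not pass the test (log2 fold change 0.08, adjusted p = 0.33 by limma). Furin, the main convertase of the A and B chains, had a log2 fold change of 0.20 (adjusted p = 0.055 by limma). The count of 3 falls was 1 without Ad-Con replicate 2, without Ad-Con replicate 3 or without Ad-PDK4 replicate 1, and 1 under TPM scaling, and the call of Serpine2 was lost in 8 of 16 alternatives and that of Plau in 8 of 17.

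Of 35 genes of adaptors and kinases that act behind the receptors, all were tested, with 12 higher, 6 lower and 17 not past the threshold. When 1 library was left out, 10 to 13 were higher and 4 to 7 lower. The share called was 51.4%, beside 42.7% of all tested genes, and the median log2 fold change was 0.10. Map2k1, the MEK1 gene of the ERK cascade, rose from 36.4 ± 0.870 to 66.6 ± 0.0612 FPKM (SD, n = 3, log2 fold change 0.87), followed by the PI3-kinase gene Pik3cb (0.57) and Stat3 (0.45). Plcg1, whose product docks on both receptors, fell from 26.9 ± 1.30 to 15.3 ± 1.01 FPKM (log2 fold change -0.81), followed by the adaptor gene Nck2 (-0.53) and the Src family kinase gene Yes1 (-0.40, adjusted p = 0.023 by limma). The call of Yes1 was lost without Ad-Con replicate 3 (-0.32), Ad-PDK4 replicate 1 (-0.41) or Ad-PDK4 replicate 2 (-0.30), and without the filter.

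Phosphatases and feedback inhibitors restrain receptor signalling. Of 20 such genes 19 were tested, and 8 rose, 1 fell and 10 did not pass (47.4% called, a share near the 42.7% of all tested genes), with a median log2 fold change of 0.19. Spry2, a feedback inhibitor of receptor kinases, rose from 17.3 ± 1.08 to 33.2 ± 1.01 FPKM (SD, n = 3, log2 fold change 0.94). Ptprj and Ptpn2, phosphatases known to act on PDGF receptors, rose by 0.78 and 0.75 on the log2 scale. The fall was in Acp1, a low molecular weight phosphatase (-0.54). With no filter or under quantile normalization 2 genes fell.

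Genes that growth factors such as PDGF induce early were split. Of 24 listed 21 were tested, and 11 rose and 4 fell, with a median log2 fold change of 0.38. When 1 library was left out, 9 to 10 rose and 4 fell. The share called was 71.4%, beside 42.7% of all tested genes and 52.3% with a filter at 5 FPKM. The rises were led by Ptgs2, the inducible cyclooxygenase gene (2.92 ± 0.602 to 7.10 ± 0.662 FPKM, SD, n = 3, log2 fold change 1.27), the protease inhibitor gene Tfpi2 (1.21) and Myc (0.81). The falls were in the zinc finger genes Egr3 (-1.77), Egr1 (50.5 ± 7.45 to 18.6 ± 3.59 FPKM, log2 fold change -1.45) and Klf10 (-1.39) and in Ier2 (-0.86). Under the Ad-Con and Ad-PDK4 labels the means of Tfpi2 were 0.486 and 1.24 FPKM, and those of Egr3 1.25 and 0.310 FPKM. Both genes passed the 0.5 FPKM filter only through the label where they were higher.

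Relatives of the PDGF system were the VEGF ligands, which belong to the same cystine-knot family, and other receptor tyrosine kinases. Of 29 listed 21 were tested, and 9 rose and 6 fell, with a median log2 fold change of 0.23. The share called was 71.4%, beside 42.7% of all tested genes and 52.3% with a filter at 5 FPKM. Csf1, the ligand of a receptor close in structure to the PDGF receptors, rose from 21.8 ± 1.21 to 107.7 ± 5.07 FPKM (SD, n = 3, log2 fold change 2.30), and Vegfd (23.1 to 54.2 FPKM) and Vegfc (6.84 to 13.8 FPKM) rose as well. Ror2 fell from 10.0 ± 0.758 to 3.16 ± 0.333 FPKM (log2 fold change -1.64), Kit by 1.01 and Flt1, a VEGF receptor gene, by 0.66. Kit lost its call in the fits without any 1 of the 3 control libraries and without Ad-PDK4 replicate 1 or 3 (from -1.08 to -0.83), and also with the replicate number as a block (-1.01, adjusted p = 0.054 by limma). The count of 6 falls was 2 without Ad-Con replicate 2 or 3, 3 without Ad-Con replicate 1, Ad-PDK4 replicate 1 or Ad-PDK4 replicate 3, and 3 under TPM scaling or without the filter.

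**Figure D4:**
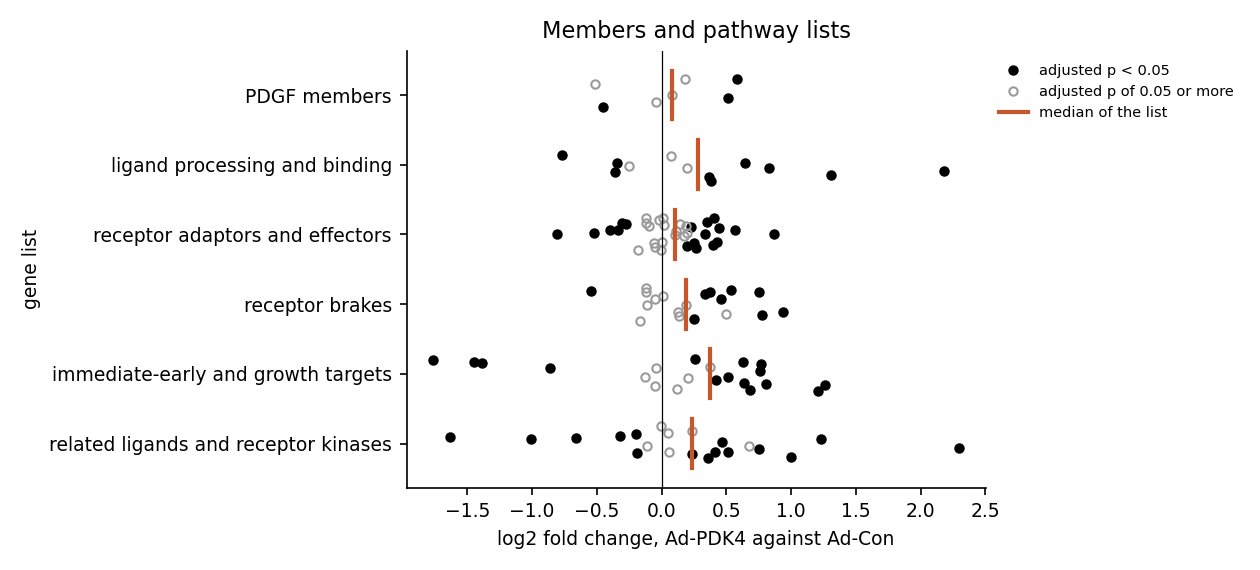
Log2 fold change of every tested gene of the 7 PDGF genes and of 5 pathway lists (filled points, adjusted p below 0.05, open points, not past the threshold), with the median of each list as a vertical line. The medians lie between 0.08 for the 7 genes and 0.38 for the early and growth targets, and called genes stand on both sides of 0 in each list.

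Markers of cell types that carry or supply PDGF were checked in the same libraries. Of 10 contractile smooth muscle markers 3 passed the filter. Acta2 was present at 78.0 ± 0.950 against 36.2 ± 2.40 FPKM (SD, n = 3), while Myh11, the most specific of them, had at most 10 reads in any library. Tagln (0.341 against 0.292 FPKM) and Cnn1 (0.466 against 0.247 FPKM) were under the filter too, with at most 20 and 30 reads in any library. The other markers past the filter did not pass the test: Smtn (8.32 against 8.44 FPKM) and Lmod1 (0.720 against 0.570 FPKM). The summed level of the 10 markers was 88.4 to 89.9 FPKM in the Ad-Con libraries and 43.7 to 48.2 FPKM under the Ad-PDK4 label. That sum was mostly Acta2. Of 12 fibroblast markers 8 passed the filter, with 2 higher and 5 lower, and their sum was 1438 to 1563 FPKM against 927 to 993 FPKM. The largest part of that sum was Col1a1 (1055.5 against 434.8 FPKM), and Col3a1, Dpt, Lum and Cd34 were lower as well. Cd34, at 1.26 against 0.475 FPKM, passed the filter only through the Ad-Con libraries. The 2 higher were Ly6a (13.3 against 200.6 FPKM) and Dcn (90.1 against 160.6 FPKM). Of 8 pericyte markers 1 passed the filter, Higd1b had no read, and the sum was 10.1 to 11.6 FPKM against 6.84 to 10.0 FPKM. Of 10 endothelial markers 1 passed the filter, Tie1, Cldn5 and Emcn were at 0, and the sum was 0.713 to 0.998 FPKM against 0.971 to 1.28 FPKM. Among 10 macrophage markers Ptprc, C1qa, C1qb and Tyrobp were at 0, 2 passed the filter, and the sum was 15.0 to 18.1 FPKM against 6.08 to 7.57 FPKM. Among 8 platelet markers Ppbp and Gp1bb were at 0, 2 passed the filter, and the sum was 2.95 to 3.51 FPKM against 2.01 to 2.88 FPKM. The macrophage sum was mostly Cd68 (14.2 ± 1.78 against 4.24 ± 0.991 FPKM), while the means of Lyz2 (1.51 against 1.98 FPKM), Csf1r (0.258 against 0.640 FPKM) and Fcer1g (0.103 against 0.203 FPKM) were not lower. The pericyte sum was mostly Notch3 (9.35 ± 0.867 against 7.52 ± 1.64 FPKM, not past the test) and the platelet sum mostly Itga2b (2.44 ± 0.0998 against 1.68 ± 0.342 FPKM). The smooth muscle, fibroblast, pericyte, macrophage and platelet sums were each lower in every library labelled Ad-PDK4 than in any Ad-Con library, and their part in the differences of the PDGF genes was not tested. In bulk libraries fewer cells of a type and less RNA per cell cannot be told apart.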

How the data were processed

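Libraries of MASMC RNA were grouped by treatment label, 3 per group. Per the study's methods paired ends were read on an Illumina HiSeq. The submitters' processing notes name CASAVA 1.8, fastp, HISAT2 2.0.5, featureCounts 1.5.0-p3, DESeq2 1.20.0 and the build GRCm39. The coordinates in the deposited table were nevertheless those of GENCODE M21 on GRCm38 for 98.3% of the matched genes and for all 7 PDGF genes, and are given on GRCm38. The labels and the methods name different library kits.

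The authors deposited FPKM per gene and library, with no pooling. Multiplied by gene length, 100% of non-zero values were whole multiples of a step (tolerance 0.01), which are called reads here. The library size behind the FPKM was not the total of these reads. It was 20353424 against a total of 20173006 in Ad-Con replicate 1, and 17558857 against 17636111 in Ad-Con replicate 2. Counting errors given cover counting only, since PCR copies of a molecule are not independent. Libraries of 1 label differed by more than sampling noise (chi-square per degree of freedom of at least 4.1).

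Alternatives changed the pseudocount, filter, scaling, moderation, replicate block or test, or left out 1 library. Values were tested with limma 3.58.1 in R 4.3.3 on log2(FPKM + 0.1), over 6 libraries without covariates, with trend and robust moderation and Benjamini-Hochberg adjustment over 13423 genes with a mean of at least 0.5 FPKM. Every adjusted p is from that fit unless another is named, and the pseudocount makes fold changes of low genes an understatement. Named genes were the 7 PDGF genes, Pdk4, the 3 largest rises and falls called in each pathway list, and the 3 most similar profiles. One gene that this rule names is not reported here. Plat, Furin, Ier2, 6330403L08Rik, Ddi1 and the markers named lie outside that rule and were picked with their values in view. The PDGF genes and the lists were chosen with earlier results of these data known. Dcn and Rgs5 each stand in 2 lists. Promoter sequences were RefSeq's and were at hand for 4 of the 7 genes.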

Additional observations from a re-analysis of the deposited data

How the results depend on the processing

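Over 17 alternatives Pdgfd ranged from 0.52 to 0.64 on the log2 scale, Pdgfrb from 0.46 to 0.57 and Pdgfc from -0.50 to -0.39, and each passed the threshold in all 17. Pdgfa (0.02 to 0.13), Pdgfb (0.15 to 0.24, 16 alternatives) and Pdgfra (-0.11 to -0.005) passed in none, Pdgfrl (-0.75 to -0.32) passed in 2 of 16, and no sign changed. The filter, moderation and replicate block settings leave the log2 fold change itself as it was and alter only its adjusted p. Scaling by median of ratios also left it almost the same (Pdgfd 0.584713, against 0.584732 in the main fit). These settings could therefore not have changed a sign. The number of PDGF genes lower was 2 in limma-voom on recovered reads and 1 to 2 when 1 library was left out, the second gene being Pdgfrl. In the list of ligand processing the number lower was 1 under TPM and 1 to 2 when 1 library was left out. Among receptor brakes it was 2 without the filter and 2 under quantile normalization. Among related ligands and kinases it was 3 without the filter, 3 under TPM and 2 to 6 when 1 library was left out. The number of early and growth targets higher was 9 to 10 when 1 library was left out, against 11 in the main fit. For adaptors and kinases behind the receptors, 10 to 13 were then higher and 4 to 7 lower. Over all tested genes 2928 were higher and 2798 lower, against 3221 and 3138 in limma-voom, 3361 and 2430 under TPM and 2531 and 3132 under quantile normalization. Without the filter 20.5% of 25202 genes were called. With a filter at 5 FPKM, 52.3% of 7731 genes were called, and Pdgfb and Pdgfrl could not be tested. Of the 28 named pathway genes, 24 kept their direction and side of the threshold throughout, and none changed sign. The causes were not tested.

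Samples with the same replicate number did not deviate together (correlations from -0.05 to -0.001 across genes), so no pairing by number was seen. Whether a number marks a shared animal or culture cannot be told from so few libraries. With the replicate number as a block 2 PDGF genes were higher and 1 lower as before, and the number of related ligands and kinases lower was 3 in place of 6, while Serpine2, Plau and Kit lost their calls. Precision was limited by 3 libraries per label, and for Pdgfb and Pdgfrl by reads as well.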
